A study of Mus musculus with 6 samples.

Results

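The 10 genes Acan, Bcan, Ncan, Vcan, Ptprz1, Tnc, Tnr, Hapln1, Hapln2 and Hapln4 encode proteins of perineuronal nets and of the matrix around glial scars. They were chosen by symbol, and each matched 1 of the 54752 genes in the count tables of the right hippocampus. Hippocampal RNA came from 3 sham mice and 3 BCAS mice, all wild-type males, with 1 library per mouse. The labels give the strain as C57BL/6 and the methods as C57BL/6 J. In the BCAS group (bilateral carotid artery stenosis, a model of lasting low blood flow to the brain) both common carotids were narrowed by microcoils, more tightly on the right, the side that was sequenced. Sham mice had the same operation without coils. Mice are numbered as in the labels, and the column names inside the BCAS tables carry other numbers. Tissue was taken 3 weeks after surgery, at an age of about 14 weeks, read from the time in the labels (the same for both groups) and the timing in the methods. Only mice that survived surgery are represented.

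Perineuronal nets are lattices of extracellular matrix that wrap the cell bodies and proximal dendrites of certain neurons, above all parvalbumin interneurons, and in the hippocampus also CA2 pyramidal cells. Their scaffold is hyaluronan. Chondroitin sulfate proteoglycans of the lectican family (aggrecan, brevican, neurocan and versican, from Acan, Bcan, Ncan and Vcan) bind hyaluronan, link proteins (from the Hapln genes) lock that bond, and tenascin-R (from Tnr) cross-links the lecticans. After injury, reactive astrocytes and oligodendrocyte precursors deposit lecticans, tenascin-C (from Tnc) and phosphacan, the secreted form of the receptor phosphatase encoded by Ptprz1, and chondroitin sulfate in such scars is known to hinder axon growth.

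All 10 genes passed the filter on low counts. In BCAS mice Tnc, Vcan and Ptprz1 were higher than in sham mice, by 1.63-fold, 1.37-fold and 1.33-fold, and Hapln4 and Tnr were lower, at 0.607 and 0.756 of the sham level. Acan, Bcan, Ncan, Hapln1 and Hapln2 did not pass the test. The test was edgeR's quasi-likelihood test across all 18617 tested genes, with an adjusted P value under 0.05 called. Of these genes 31.3% were called in either direction, 18.0% higher and 13.2% lower in BCAS mice. The 5 of 10 matrix genes called, 3 higher and 2 lower, stand beside that background. All BCAS mice were above all sham mice in the 3 called higher, as in 25.3% of all tested genes, and below them in the 2 called lower, as in 22.7%. With library totals in place of TMM scaling, 3859 genes were called higher and 1788 lower, against 3356 and 2463 with TMM, and the 5 matrix genes were called in the same directions. None of the 10 passed the study's thresholds for differentially expressed genes (DEGs), which add an absolute log2 fold change above 1 and which 9.46% of all tested genes passed. DESeq2 and limma-voom also placed 0 of the 10 past both thresholds, and 5 of the 10 had an unadjusted P value under 0.05 in edgeR.

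**Figure D1:**
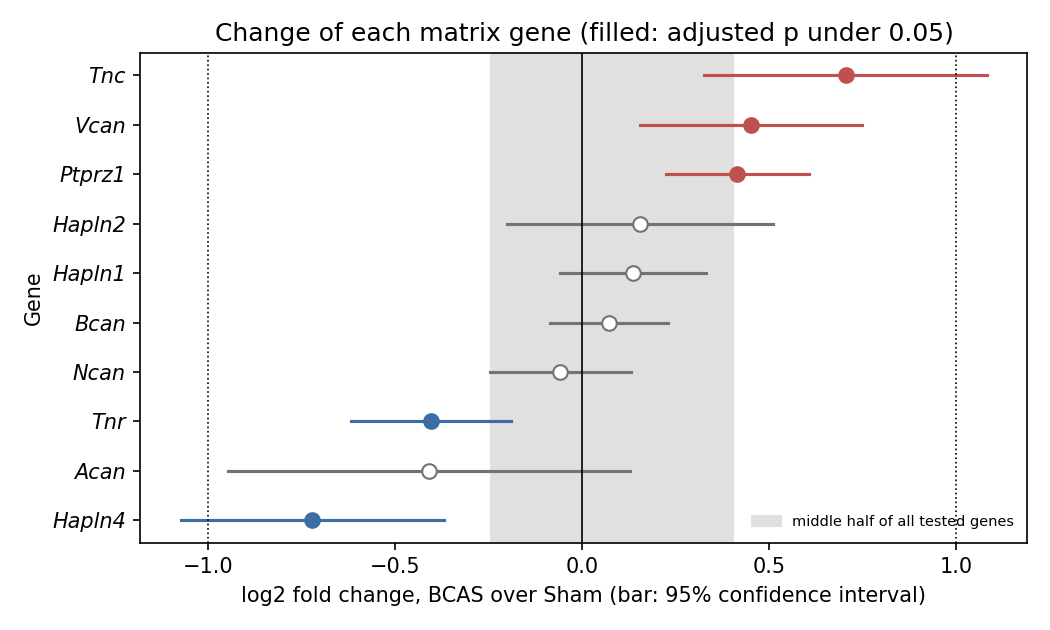
Log2 fold change of each gene, BCAS over sham, with its 95% confidence interval from edgeR (3 mice per group). Filled points passed an adjusted P value of 0.05, the grey band spans the quartiles of all tested genes (-0.24 to 0.40), and dotted lines mark a log2 fold change of -1 and 1. Tnc, Vcan and Ptprz1 lie to the right of 0 and Tnr and Hapln4 to the left, all inside the dotted lines.

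Totals ran from 29652456 to 35607098 counts per library, and the 10 genes had 87 (Acan) to 11484 counts (Ptprz1) in a single library. Levels are given as TMM-normalised CPM, the counts scaled to a common library size. The hippocampal identity of the tissue was checked with neuronal markers, among which Prox1, of dentate granule cells, ran from 58.3 to 116 CPM over the 6 libraries. Neurod6 ran from 230.3 to 274 CPM in sham mice and, called lower, from 52.4 to 111 CPM in BCAS mice, with no marker of the cell type lists at 0 in every library. Aurkb, of dividing cells, was at 0 in sham mouse 3. Choroid plexus markers varied from mouse to mouse, with a summed CPM of 71.0 to 4135 in sham mice against 48.0 to 6006 in BCAS mice. BCAS mouse 3 stood apart from the other 2 BCAS mice in several lists, with the highest summed CPM of microglia and oligodendrocyte markers and the lowest of principal neuron markers. In such bulk samples, fewer cells of a type and less RNA per cell cannot be told apart.

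On the mm10 build each lectican gene sits next to a link protein gene, with 0 other genes of the tables wholly between them. Bcan (ENSMUSG00000004892.13, chromosome 3 from 87987531 to 88000230, minus strand) and Hapln2 (ENSMUSG00000004894.10, chromosome 3 from 88021750 to 88027583, minus strand) are 21519 bases apart. Ncan (ENSMUSG00000002341.8, chromosome 8 from 70093085 to 70120873, minus strand) and Hapln4 (ENSMUSG00000007594.10, chromosome 8 from 70083457 to 70090862, plus strand) are 2222 bases apart. Vcan (ENSMUSG00000021614.16, chromosome 13 from 89655312 to 89742509, minus strand) and Hapln1 (ENSMUSG00000021613.9, chromosome 13 from 89539796 to 89611652, plus strand) are 43659 bases apart. Acan (ENSMUSG00000030607.7, chromosome 7 from 79053483 to 79115099, plus strand) ends 2 bases from Hapln3, a link protein gene outside the 10. The remaining genes lie alone: Ptprz1 (ENSMUSG00000068748.7) on chromosome 6 from 22875502 to 23052916 and Tnr (ENSMUSG00000015829.13) on chromosome 1 from 159523769 to 159931729, both on the plus strand, and Tnc (ENSMUSG00000028364.15) on chromosome 4 from 63959785 to 64047015 on the minus strand. Exons of Tnc share 176 bases with the opposite-strand gene 8030451A03Rik, which had 0 to 9 counts per library, and exons of Tnr share 443 bases with Gm38039, which had 0 counts in every library. By the settings in the file headers, a read that overlapped exons of both genes was counted for neither, and reads from opposite strands cannot be told apart. The counts are per gene and cannot separate splice forms, such as phosphacan from the membrane-bound forms of Ptprz1.

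Promoter sequences are shown for the called genes that RefSeq's table for GRCm38.p6 holds, since these genes moved in opposite directions. The table matched 9 of the 10 genes, and Hapln4 is the gene without an entry. Each sequence is the 250 bases before the annotated start, read 5′ to 3′ on the gene's strand, with every CG dinucleotide in capitals. The first 3 belong to genes that were higher in BCAS mice, and the last to Tnr, which was lower.
Tnc, chr4:64047016-64047265, minus strand: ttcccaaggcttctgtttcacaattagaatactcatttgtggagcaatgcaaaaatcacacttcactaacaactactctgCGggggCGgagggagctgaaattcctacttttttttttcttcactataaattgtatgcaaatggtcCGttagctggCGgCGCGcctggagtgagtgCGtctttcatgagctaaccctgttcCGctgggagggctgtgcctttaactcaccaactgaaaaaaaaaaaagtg
Vcan, chr13:89742513-89742762, minus strand: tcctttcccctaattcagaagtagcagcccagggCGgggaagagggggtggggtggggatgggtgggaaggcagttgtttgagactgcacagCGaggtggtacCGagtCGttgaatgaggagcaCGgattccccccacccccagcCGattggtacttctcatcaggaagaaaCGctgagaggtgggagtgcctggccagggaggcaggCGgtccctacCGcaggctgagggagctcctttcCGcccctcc
Ptprz1, chr6:22875252-22875501, plus strand: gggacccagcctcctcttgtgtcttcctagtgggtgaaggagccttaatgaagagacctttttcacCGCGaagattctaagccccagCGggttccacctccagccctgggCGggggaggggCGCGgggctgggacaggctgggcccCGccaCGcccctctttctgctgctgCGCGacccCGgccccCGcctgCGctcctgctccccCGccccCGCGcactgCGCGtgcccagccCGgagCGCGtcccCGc
Tnr, chr1:159523519-159523768, plus strand: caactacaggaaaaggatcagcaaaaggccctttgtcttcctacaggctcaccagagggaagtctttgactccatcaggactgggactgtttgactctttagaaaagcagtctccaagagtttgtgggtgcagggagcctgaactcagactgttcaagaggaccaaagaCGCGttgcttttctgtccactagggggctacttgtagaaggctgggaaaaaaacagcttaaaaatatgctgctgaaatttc

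The Ptprz1 window held 22 CG dinucleotides and 71.6% G and C, the Vcan window 10 and 62.4%, the Tnc window 8 and 44.8%, and the Tnr window 2 and 46.8%. The median over 32851 such windows was 6 CG dinucleotides and 52.4% G and C. Searched on both strands, TTCNNNGAA (the STAT motif) was in 7.02% of all windows and TGANTCA (AP-1) in 6.75%. Neither letter pattern was in any of the 4 windows. TATAAA, the TATA box, was in 12.4% of all windows and in that of Tnc, at position -126 from the start. ACAAAG, a SOX motif, was in 16.5% of all windows and in that of Tnr, at position -220 on the opposite strand. TTGGCA (a nuclear factor I motif) was in 12.3% of all windows and in none of the 4.

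To compare levels between genes, CPM was divided by the exonic length in kilobases. Bcan had the highest level in both groups, with 58.7 ± 1.19 CPM per kb in sham mice against 61.7 ± 1.75 in BCAS mice (SD, n = 3 each). In sham mice the order below Bcan was Hapln4 (36.1), Ncan (22.3), Ptprz1 (18.8), Hapln2 (12.9), Tnr (10.9), Hapln1 (5.68), Vcan (1.51), Tnc (1.05) and Acan (0.545). Only the neighbours Hapln2 and Tnr overlapped between sham mice, so their order was not resolved. In BCAS mice Ptprz1 (25.1 ± 1.39) came next to Bcan, followed by Hapln4 (21.9 ± 5.27) and Ncan (21.4 ± 1.65). The neighbours Ptprz1 and Hapln4, Hapln4 and Ncan, and Vcan and Tnc overlapped in BCAS mice, and the other neighbours did not. The highest and lowest genes, Bcan and Acan, kept their places in both groups.

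**Figure D2:**
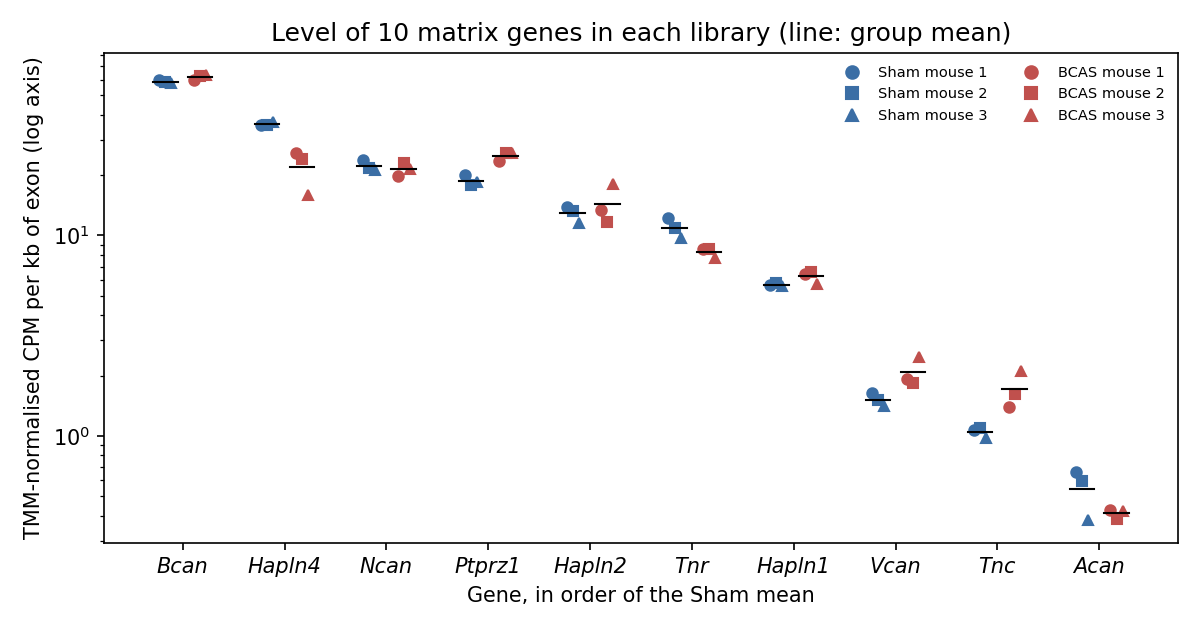
Level of each gene in each library as TMM-normalised CPM per kilobase of exon on a log axis, with sham mice in blue, BCAS mice in red, a symbol for each mouse and a line at the group mean (n = 3). The levels span from 0.379 (Acan, sham mouse 3) to 63.1 (Bcan, BCAS mouse 3), and the colours separate for Tnc, Vcan, Ptprz1, Tnr and Hapln4.

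Of the 4 lecticans, Vcan alone was called. Versican is made in the brain by oligodendrocyte precursors, astrocytes and vessel-associated cells. Its CPM was 23.6, 21.8 and 20.3 in sham mice 1 to 3 and 27.7, 26.5 and 35.7 in BCAS mice 1 to 3. All BCAS mice were above all sham mice, and BCAS mouse 3 was well above the other 2. The log2 fold change was 0.45 (standard error 0.13, edgeR adjusted P = 0.0292). This call was the least certain of the 5: the adjusted P was 0.0582, 0.0801 and 0.107 without sham mouse 1, 2 or 3, 0.0853 without BCAS mouse 3 and 0.0713 with the replicate number as a block, in a range of 0.0113 to 0.107 over its alternatives.

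Bcan and Ncan, the abundant lecticans of the adult brain, did not pass. Brevican is made by astrocytes and neurons and neurocan largely by neurons and reactive astrocytes. Bcan had 244, 236 and 235 CPM in sham mice against 243, 253 and 256 CPM in BCAS mice. The groups overlapped, and the log2 fold change was 0.073 with a 95% confidence interval of -0.086 to 0.23 (edgeR adjusted P = 0.470). Ncan had 171, 157 and 153 CPM in sham mice against 142, 166 and 154 CPM in BCAS mice. These also overlapped, with a log2 fold change of -0.057 and an interval of -0.25 to 0.13 (edgeR adjusted P = 0.641). Both intervals exclude a change of the size of a DEG in either direction.

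Acan encodes aggrecan, the lectican most closely tied to mature perineuronal nets. It had 4.93, 4.46 and 2.83 CPM in sham mice against 3.17, 2.88 and 3.14 CPM in BCAS mice. BCAS mice lay close together and below sham mice 1 and 2, while sham mouse 3 was the lowest of all 6. For Acan the log2 fold change was -0.41 (standard error 0.24, edgeR adjusted P = 0.225), with an interval of -0.95 to 0.13, the widest of the 10. It was -0.25 without sham mouse 1 (edgeR adjusted P = 0.531) and -0.62 without sham mouse 3 (edgeR adjusted P = 0.0710), in a range of adjusted P from 0.0710 to 0.531 over the alternatives.

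Both tenascins passed, in opposite directions. Tenascin-C is the embryonic and injury-associated tenascin, made in the adult brain mainly by astrocytes. Tnc had 8.35, 8.53 and 7.58 CPM in sham mice against 10.8, 12.6 and 16.4 CPM in BCAS mice. The groups did not overlap, and BCAS mouse 3 was the highest. Its log2 fold change of 0.71 was the largest rise of the 10 (standard error 0.17, edgeR adjusted P = 0.0127). The adjusted P was 0.0549 without sham mouse 3, the upper end of its range of 0.00176 to 0.0549 over the alternatives.

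Tenascin-R is the tenascin of perineuronal nets and nodes of Ranvier, made by oligodendrocytes and some neurons. Tnr had 157, 141 and 125 CPM in sham mice against 109.6, 110.1 and 99.6 CPM in BCAS mice. The groups did not overlap, and sham mice were spread more widely than BCAS mice. The log2 fold change was -0.40 (standard error 0.094, edgeR adjusted P = 0.0121), and Tnr was called under each of the 14 alternatives. The Tnr level per kb was 10.4 ± 0.796 times that of Tnc in sham mice against 5.01 ± 1.25 times in BCAS mice (SD, n = 3 each). This ratio needs no scaling between libraries, and it was 9.96 to 11.3 in sham mice against 3.66 to 6.11 in BCAS mice.

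Ptprz1 encodes a receptor phosphatase of astrocytes and oligodendrocyte precursors that carries chondroitin sulfate and binds pleiotrophin, midkine, contactin-1 and tenascins. It had 287, 254 and 262 CPM in sham mice against 334, 369 and 368 CPM in BCAS mice. The lowest BCAS mouse lay above the highest sham mouse. Its log2 fold change was 0.42 (standard error 0.084, edgeR adjusted P = 0.00645), and Ptprz1 was called under each of the 14 alternatives. In absolute terms Ptprz1 gained the most, from 268 ± 16.8 to 357 ± 19.8 CPM (SD, n = 3 each).

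Of the 3 link protein genes, Hapln4 alone was called. Hapln4 encodes a link protein of perineuronal nets and perisynaptic matrix that pairs with brevican and is made by neurons. It had 139.9, 140.4 and 145 CPM in sham mice against 101, 94.1 and 62.5 CPM in BCAS mice. The SD of sham mice was 2.51 CPM (n = 3), and BCAS mice were all lower, with BCAS mouse 3 the lowest. The log2 fold change was -0.72 (standard error 0.16, edgeR adjusted P = 0.00862). Without BCAS mouse 3 it was -0.54, and Hapln4 was called under each of the 14 alternatives.

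Hapln1 encodes the cartilage link protein, which is also the main link protein of perineuronal nets on many neurons. Its CPM was 33.3, 34.4 and 32.9 in sham mice against 38.1, 38.7 and 33.8 in BCAS mice. BCAS mouse 3 lay within the sham range, so the groups overlapped. Its log2 fold change was 0.14 with an interval of -0.057 to 0.33 (edgeR adjusted P = 0.258).

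Hapln2 encodes Bral1, which oligodendrocytes place at nodes of Ranvier. Its CPM was 33.0, 31.2 and 27.4 in sham mice against 31.8, 27.6 and 42.7 in BCAS mice. BCAS mouse 3 was the highest and the other 2 BCAS mice lay within the sham range. The log2 fold change was 0.16 with an interval of -0.20 to 0.51 (edgeR adjusted P = 0.489), and it was -0.046 without BCAS mouse 3. The 10 oligodendrocyte markers had a summed CPM of 6820, 6339 and 5569 in sham mice against 6907, 6241 and 9419 in BCAS mice. Hapln2 and this sum were both highest in BCAS mouse 3, and both were lower in sham mouse 3 and BCAS mouse 2 than in the remaining libraries. Their relation was not tested.

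Within each library, the makeup of a family was expressed as a share of its summed CPM per kb. Hapln4 made up 66.1 ± 1.94% of the 3 link proteins in sham mice against 51.2 ± 9.56% in BCAS mice (SD, n = 3 each). The BCAS shares were 56.5%, 56.9% and 40.1%, all below the lowest sham share of 64.6%. Tnc made up 8.78 ± 0.589% of the tenascin pair in sham mice against 17.2 ± 3.84% in BCAS mice. The share of Vcan in the lecticans was 1.82 ± 0.0822% and 2.42 ± 0.372%, with the groups apart. The share of Bcan was 70.7 ± 0.892% in sham mice against 72.1 ± 0.928% in BCAS mice, with overlap. These shares restate the counts of the same genes and carry no separate test.

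**Figure D3:**
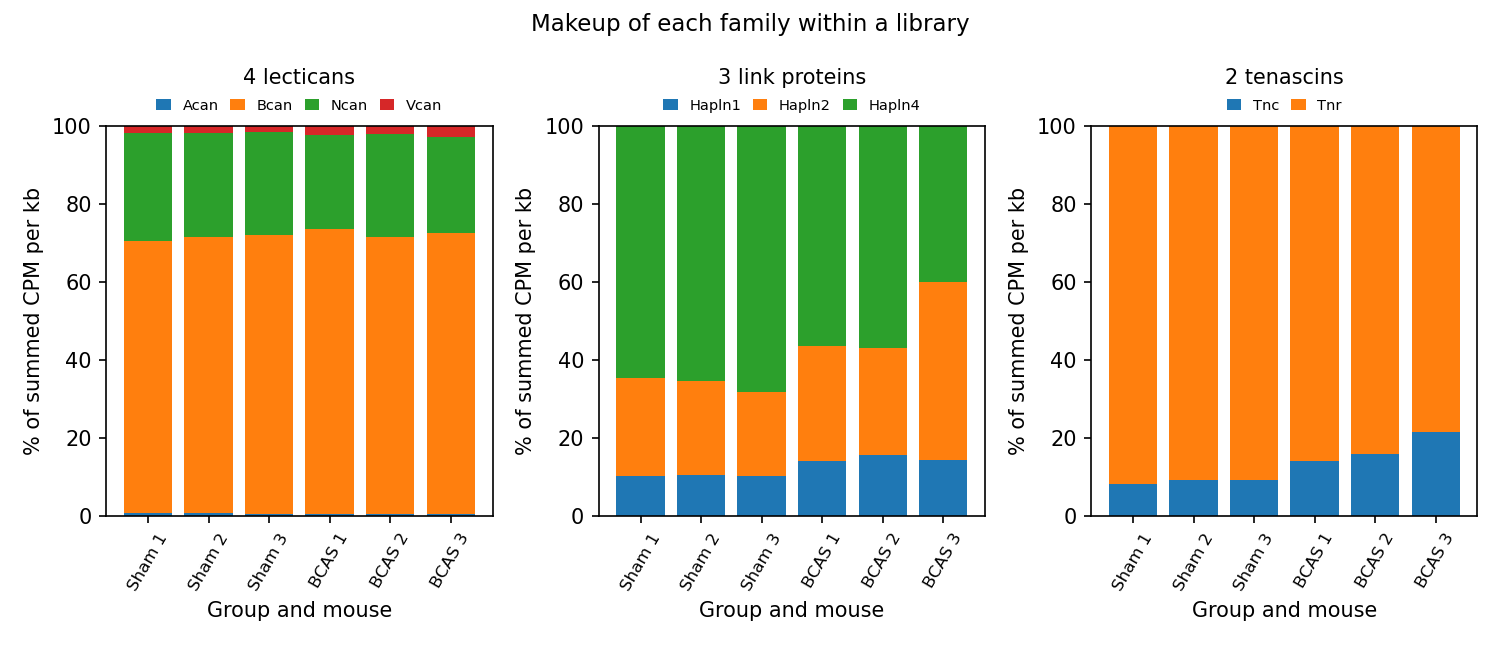
Share of each gene in the summed CPM per kb of its family, in percent, for the 3 sham and 3 BCAS libraries: the lecticans, the link proteins and the tenascins. The Hapln4 portion is smaller and the Tnc portion larger in every BCAS library than in every sham library, and Bcan takes 69.8% to 73.0% of the lecticans throughout.

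In none of the 3 adjacent pairs among the 10 genes were both genes called. Across the 2222 bases between Ncan and Hapln4, the ratio of their levels per kb was 0.617 ± 0.0447 in sham mice against 1.02 ± 0.297 in BCAS mice (SD, n = 3 each), and the groups did not overlap. The Vcan to Hapln1 ratio was 0.267 ± 0.0195 and 0.336 ± 0.0827, and the groups overlapped. Between Bcan and Hapln2 the ratio was 4.58 ± 0.376 and 4.43 ± 0.923, also with overlap. For the Acan and Hapln3 pair it was 1.51 ± 0.568 and 0.842 ± 0.0516, again with overlap in sham mouse 3. No test was run on these ratios.

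Genes whose log2 CPM ran most closely with a called gene over the 6 libraries were named by Pearson's r as a description. For Vcan these were Scaf11, Bcas1 and Aldh1a1 (r = 0.998, 0.998 and 0.997). For Ptprz1 they were Pik3cd, Arl5c and Cd300lb (0.999, 0.997 and 0.997), and for Tnc they were Nmnat3, Ctla2a and Gm16907 (0.998, 0.996 and 0.996). Tmem132b, Inhba and Gm42741 were closest to Tnr (0.997, 0.994 and 0.993), and Senp3, Sms and Jph4 to Hapln4 (0.999, 0.998 and 0.998). With 6 libraries in separate groups such values are common, since 159 (Tnr) to 1059 genes (Hapln4) had an r above 0.95.

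Markers of cell types that are known to make this matrix, or that could add to these samples, were set beside it. Of 11 astrocyte markers 10 were called higher in BCAS mice, with a summed CPM of 4645 to 4905 in sham mice against 10029 to 10568 in BCAS mice. Of 10 oligodendrocyte precursor markers 3 were called higher (Cspg4, Gpr17 and Sox6), beside 18.0% of all tested genes, and 7 did not pass, among them Pdgfra and Olig2, with a summed CPM of 444 to 480 in sham mice against 495 to 605 in BCAS mice. Of 8 fibroblast and meningeal markers 6 were called higher, and Dcn and Slc6a13 did not pass. The summed CPM of the 8 was 125 to 229 in sham mice against 248.5 to 425 in BCAS mice. All 10 microglia and macrophage markers were called higher, and their sum had the largest fold shift of these lists, from 319 to 333 CPM in sham mice up to 1974 to 3198 CPM in BCAS mice. These values stand beside the rises of Tnc, Vcan and Ptprz1, and their part in them was not tested. None of the 10 mature oligodendrocyte markers was called by edgeR or limma-voom, 1 was called by DESeq2, and 1 had an unadjusted P value under 0.05 in edgeR.

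Of 12 interneuron markers 7 were called lower in BCAS mice, beside 13.2% of all tested genes. Among the 7 were Pvalb (log2 fold change -0.58, edgeR adjusted P = 0.00622) and Sst (-1.10, edgeR adjusted P = 0.00232). The summed CPM of the 12 markers was 1647 to 1818 in sham mice against 1048 to 1273 in BCAS mice. Of 12 principal neuron markers 8 were called lower, beside the same 13.2%, including the CA2 markers Amigo2 (-0.74) and Rgs14 (-1.24). The summed CPM of these 12 was 5833 to 5960 in sham mice against 2737 to 4090 in BCAS mice. These values stand beside the falls of Hapln4 and Tnr, and their part in those was not tested. Hapln4, per mouse, was lowest in BCAS mouse 3, as was the summed CPM of both neuronal lists, while Pvalb was lowest in BCAS mouse 1 (16.4 CPM). Tnr was also lowest in BCAS mouse 3 (99.6 CPM), where the summed CPM of the oligodendrocyte markers was highest (9419). These per-mouse relations were not tested.

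Other genes of this matrix were taken from lists. Of 17 other matrix proteoglycans, tenascins and link proteins, 9 were called higher and 3 lower, beside 18.0% and 13.2% of all tested genes. The median log2 fold change was 0.60 against 0.018 over all tested genes. The rises included Srgn (1.98), the serglycin of blood and myeloid cells, the small leucine-rich proteoglycans Fmod (1.64), Omd (1.48), Bgn (1.37), Ogn (1.07) and Lum (0.78), and Cspg4 (0.73), the NG2 proteoglycan of oligodendrocyte precursors and pericytes. Epyc, another small leucine-rich proteoglycan, had the largest fall (-2.13), from 2.70 ± 0.323 to 0.610 ± 0.378 CPM (SD, n = 3 each, edgeR adjusted P = 0.00459). Fmod, Omd, Bgn, Ogn and Lum are genes of meningeal and vascular fibroblasts. Dcn, which is in this list and in the fibroblast list, did not pass (0.27, edgeR adjusted P = 0.479), and its groups overlapped. The cell source of the rises was not tested. Without sham mouse 1 or sham mouse 2 the number called was 7 in place of 12, and the median was 0.40 without BCAS mouse 1.

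Of 14 hyaluronan genes 6 were called higher and 1 lower, beside 18.0% and 13.2% of all tested genes, with a median of 0.40. Cd44, the main hyaluronan receptor, had 7.41, 4.73 and 7.70 CPM in sham mice against 38.0, 45.0 and 57.0 CPM in BCAS mice, and its log2 change was 2.82 (SE 0.21, edgeR adjusted P = 4.05e-05). Stab1 (1.89), a scavenger receptor of macrophages, Hmmr (1.44), a hyaluronan-binding protein of dividing cells, and the degrading Hyal1 (0.84) and Cemip (0.41) were also higher. Stab2 did not pass (-0.52, edgeR adjusted P = 0.252). The synthase Has2 rose by 1.86 from a low level, 0.413 ± 0.0856 to 1.51 ± 0.660 CPM, and the neuronal synthase Has3 fell by 0.59, from 3.63 ± 0.159 to 2.41 ± 0.299 CPM (SD, n = 3 each, edgeR adjusted P = 0.0494). The number called was 4 in place of 7 when any mouse but BCAS mouse 2 was left out, and the median was 0.19 without BCAS mouse 3.

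Of 21 tested genes for enzymes that build chondroitin sulfate, 4 were called higher, 5 lower and 12 not at all, beside 18.0% and 13.2% of all tested genes called higher and lower, with a median of -0.012, which ran from -0.042 (without sham mouse 3) to 0.064 (library totals) over the alternatives. Chst14 (1.15) and Dse (0.63), which convert and sulfate chondroitin to dermatan sulfate, Chst7 (0.98), a chondroitin 6-O-sulfotransferase, and the polymerase Chsy1 (0.62) were higher. Ust (-0.75), the uronyl 2-O-sulfotransferase, the polymerase subunit Chpf (-0.46), the epimerase Dsel (-0.39) and B3gat3 (-0.39) of the linker region were among the falls. Ust had 80.3 ± 1.79 CPM in sham mice against 47.9 ± 9.02 in BCAS mice (SD, n = 3 each, edgeR adjusted P = 0.00271). Without sham mouse 1 or sham mouse 3 the number called was 5 in place of 9.

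Of 11 genes in the list of lectican-cleaving metalloproteases with the inhibitor Timp3, 6 were called, all higher, beside 18.0% of all tested genes. The list median was 0.41. The 6 called were Mmp2 (1.92), Adamts5 (1.07), Timp3 (0.84), Adamts1 (0.59), Adamts9 (0.41) and Mmp3, and the groups overlapped for Adamts1. Mmp3, stromelysin-1, had 2, 2 and 0 counts in sham mice against 17, 908 and 439 counts in BCAS mice, so it passed the filter on low counts through the BCAS mice alone. Of the other 10 genes 5 were called. The ratio of the summed counts, scaled by library size, was 369 (95% exact binomial interval 144 to 1360). The interval covers counting error only and is too narrow, since both mates of a fragment can be counted, and BCAS mouse 1 lay far below the other 2 BCAS mice. Adamts4, the best known brevican-cleaving protease, had 27.3, 23.5 and 22.3 CPM in sham mice against 25.9, 22.9 and 44.2 CPM in BCAS mice and did not pass (edgeR adjusted P = 0.276). The number called was 3 without sham mouse 3, 3 without BCAS mouse 3 and 3 with the replicate block.

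Of 17 receptors and partners 7 were called lower and 3 higher, beside 13.2% and 18.0% of all tested genes, with a median of -0.13. Nptx2, the neuronal pentraxin that gathers AMPA receptors on parvalbumin cells, had the largest fall (-1.31), from 27.8 ± 2.68 to 11.2 ± 2.33 CPM (SD, n = 3 each, edgeR adjusted P = 4.29e-04). The Nogo receptor genes Rtn4rl2 (-0.64) and Rtn4r (-0.39), their co-receptor Lingo1 (-0.73) and Crtac1 (-0.63) were lower. Mdk, the Ptprz1 ligand midkine, was higher by 0.84 (10.98 ± 0.643 to 19.7 ± 1.48 CPM, edgeR adjusted P = 7.75e-04), as were Itgb1 (0.94), an integrin subunit for tenascin-C, and Ptprf (0.53). Ptn, for the Ptprz1 ligand pleiotrophin, did not pass (log2 fold change 0.15, edgeR adjusted P = 0.285). Cntn1, for the Ptprz1 partner contactin-1, was lower (-0.34, edgeR adjusted P = 0.0222). Ptprs, the receptor phosphatase most studied for chondroitin sulfate binding, did not pass (log2 fold change -0.13, edgeR adjusted P = 0.364). Without sham mouse 3 the number called was 6 in place of 10. The median ran from -0.29 and -0.20 (without BCAS mouse 2 or BCAS mouse 3) to -0.053 (library totals).

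**Figure D4:**
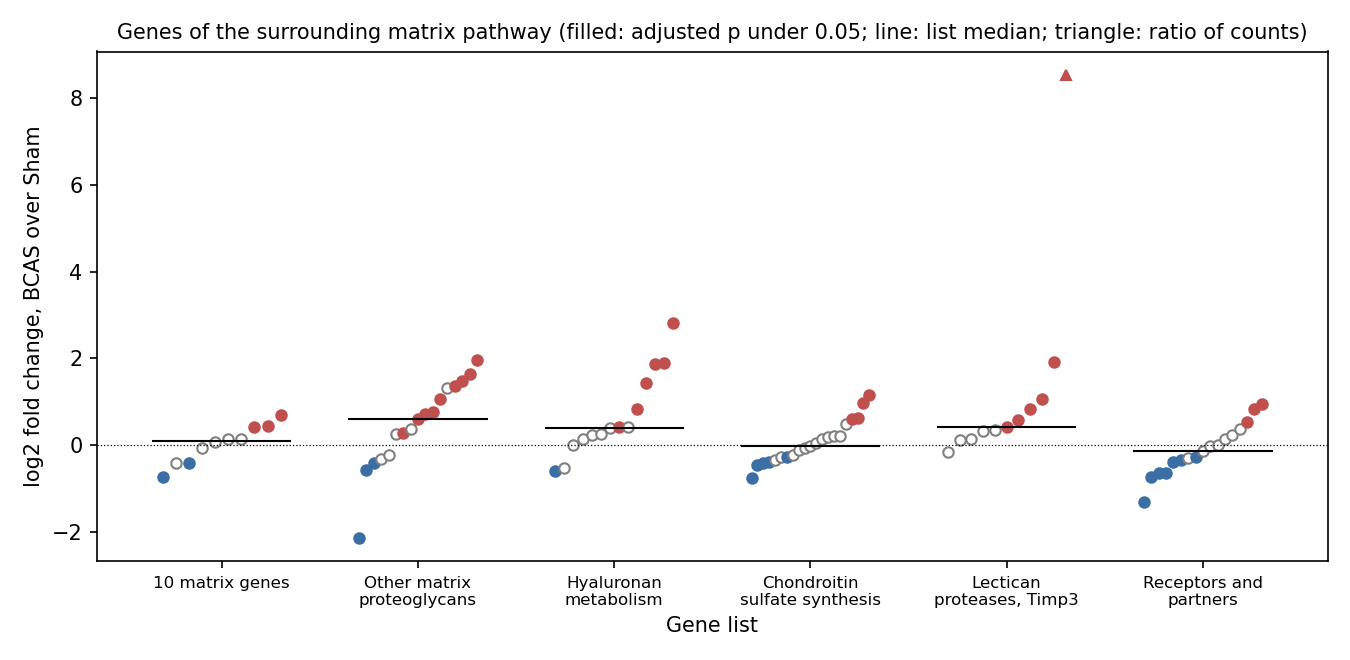
Log2 fold change, BCAS over sham, of each tested gene in the 10 matrix genes and in 5 lists around them, in order of size within a list. Filled points passed an adjusted P value of 0.05 in edgeR, lines mark list medians, and the triangle is the ratio of summed counts of Mmp3, 8.53 on the log2 scale. The 10 matrix genes stay between -0.72 and 0.71, while the other lists, Mmp3 aside, reach 2.82 (Cd44) and -2.13 (Epyc).

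**Figure D5:**
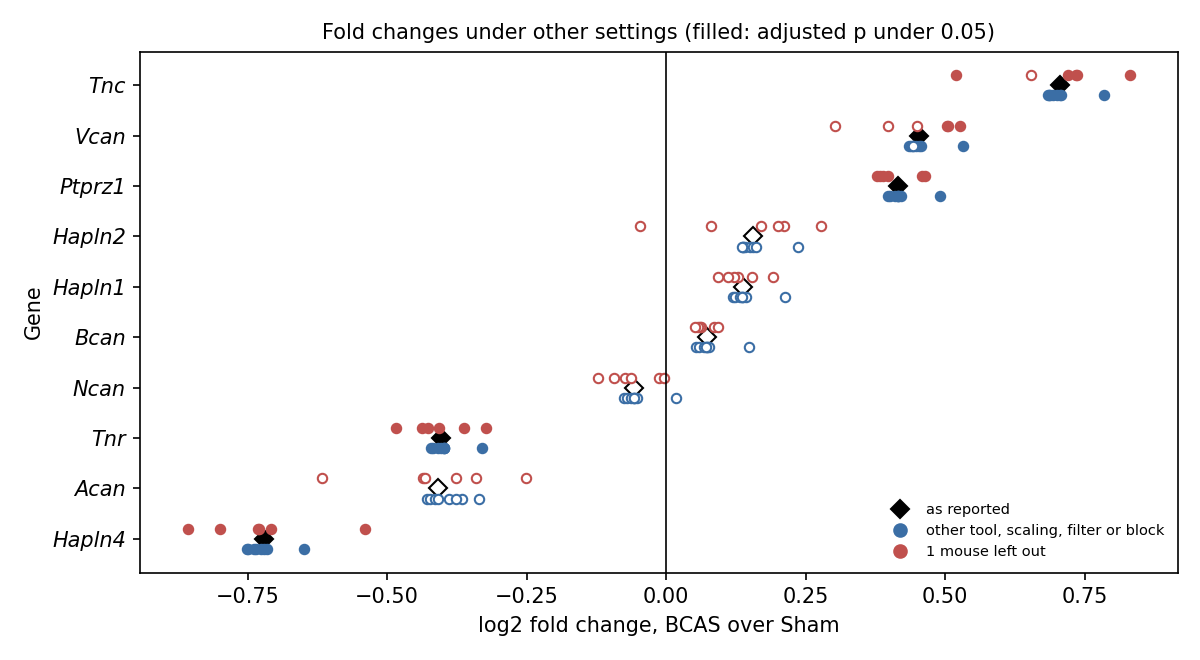
Log2 fold change of each matrix gene as reported (diamonds), under 8 other tools, scalings, filters or the replicate block (blue) and with each of the 6 mice left out (red), filled where the adjusted P value was under 0.05. Ptprz1, Tnr and Hapln4 are filled throughout, Tnc has 1 open point at 0.65, and Vcan has 5 open points between 0.30 and 0.51.

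Over the 14 alternatives, the number of called matrix genes was 3 to 5. It was 3 without sham mouse 3, where Tnc and Vcan were not called, and 4 without sham mouse 1, sham mouse 2 or BCAS mouse 3 and with the replicate block, where Vcan was not called. The 2 calls of lower expression, Tnr and Hapln4, were made in every alternative run. The groups did not overlap in the 5 called genes and overlapped in the other 5, and they did not overlap in 48.0% of all tested genes.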

How the data were processed

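RNA-seq libraries of 3 sham and 3 BCAS right hippocampi were grouped by their labels. The authors trimmed reads, aligned them with HISAT2 to mm10 and counted them with featureCounts, and they deposited raw counts per gene without normalization. The file headers name featureCounts 2.0.3 with GENCODE exons, and the submitters' processing notes name version 1.6.3. By the headers, mates were counted separately, strand was ignored and reads on several genes or places were left out. Depth was 29652456 to 35607098 counts per library.

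Symbols were matched for 54723 of 54752 genes. Genes were kept by filterByExpr, scaled by TMM and tested with edgeR 4.0.16 (R 4.3.3) without a block, with Benjamini-Hochberg adjustment over all tested genes. Log2 CPM had 2 as prior count. Alternatives were DESeq2 1.42.0, limma-voom (limma 3.58.1), RLE, library totals, no filter, a mean of 10 counts, counts halved, the replicate number as a block and each mouse left out. The steps were run on simulated counts with far fewer changed genes than were called here, as many raised as lowered. That run therefore does not cover a change as broad and uneven as in these data. Named genes were all 10 matrix genes and called genes of the lists (at most 8 a list, by size). Also named were genes needed to say what was not called, the 3 most alike genes for each called one and Cntn1, a Ptprz1 partner. The 10 genes and the lists were chosen with earlier results of these data known. Promoters are from RefSeq. The blood flow, histology and qRT-PCR measurements were not analysed here.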

Additional observations from a re-analysis of the deposited data

How the results depend on the processing

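Of 140 comparisons of a matrix gene with its own result under an alternative, 132 kept direction and call, 6 lost the call and 2 turned direction, both in genes that were not called: Ncan was 0.018 with library totals and Hapln2 ran from -0.046 (without BCAS mouse 3) to 0.28 with a mouse left out. With a mouse left out, the number of called matrix genes ran from 3 to 5, of those called higher from 1 to 3, of all genes called from 3782 to 6646 and of all genes called lower from 1260 to 3092. The lists around them ran from 7 to 12 called for other matrix proteoglycans, 4 to 6 for hyaluronan genes and 5 to 9 for chondroitin sulfate synthesis. The numbers were 3 to 6 for lectican proteases with Timp3 and 6 to 10 for receptors and partners. By the numbers in the labels, deviations of same-numbered mice correlated at 0.036, -0.314 and -0.158, so these numbers were not taken to pair the mice. Other numbers stand in the column names of the BCAS tables, so which mice share a number is itself in doubt. With the replicate block 4532 genes were called in place of 5819, and 4 matrix genes in place of 5. In the list of lectican proteases with the inhibitor Timp3, 3 genes were called in place of 6. The cause of these shifts was not tested. The median log2 fold change of all genes was 0.018, and 0.095 with library totals. With counts halved, Acan, the gene with the fewest counts, was -0.39 (edgeR adjusted P = 0.242).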

Other observations

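Genes of dividing cells were higher in BCAS mice, with all 6 of the list called by edgeR, beside 18.0% of all tested genes. The median log2 fold change was 2.12. Aurkb, at 0 in sham mouse 3, passed the filter on low counts only with the BCAS mice and is in that count and median. The summed CPM of the list was 7.20, 6.38 and 5.83 in sham mice and 22.7, 16.5 and 43.2 in BCAS mice. It was highest in BCAS mouse 3, the mouse that also had the highest Tnc and Vcan. The same mouse was highest in 4 of the 10 matrix genes, 10 of 10 microglia and macrophage markers and 9 of 10 oligodendrocyte markers. It was highest in 0 of the 12 markers of each neuronal list. A relation between dividing cells and Tnc or Vcan was not tested. Among 8 endothelial markers 5 were called higher, beside the same 18.0%, with Cdh5 (0.98) higher by the most. The summed CPM of these 8 was 288 to 308 in sham mice against 376 to 425 in BCAS mice. Choroid plexus markers, with 0 of 6 called by edgeR, DESeq2 or limma-voom and 0 at an unadjusted P value under 0.05, ranged widely within each group, with the lowest sums in sham mouse 3 (71.0) and BCAS mouse 2 (48.0).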
